A study of Mus musculus with 2 samples.

Results

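The 97 entries examined here are genes for subunits of the oxidative phosphorylation machinery of mitochondria, taken from both genomes that encode it. They were all the gene symbols that start with Nduf followed by a, b, c, s or v and a digit, with Uqcr, with Cox and a digit from 4 to 8, or with Atp5, together with Sdha, Sdhb, Sdhc, Sdhd and the mitochondrial mt-Nd, mt-Co, mt-Cytb and mt-Atp genes. They made up 97 of the 31053 genes counted, and 84 of them lie in the nucleus and 13 in the mitochondrial genome. By complex, 37 nuclear and 7 mitochondrial genes belonged to complex I, 4 nuclear genes to complex II, 8 and 1 to complex III, 18 and 3 to complex IV, and 17 and 2 to complex V. The nuclear genes were spread over 19 chromosomes, with at most 8 on 1 of them, chromosome 7. Atp5o was listed under 2 Ensembl identifiers, so the entries carried 96 symbols.

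Complexes I, III and IV of the inner mitochondrial membrane pass electrons from NADH to oxygen and pump protons, complex II feeds in electrons from succinate without pumping, and complex V, the ATP synthase, lets the protons flow back to make ATP. The mitochondrial genome encodes the membrane core of complexes I, III, IV and V, while the nuclear genome encodes all of complex II and the other subunits, which are made in the cytosol and imported. Both sets of proteins must be assembled together, and mature neutrophils are known to hold few mitochondria and to live mainly from glycolysis, whereas monocytes keep theirs.

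Bone marrow came from C57BL/6;Balb/c hybrid mice in which severe aplastic anemia (SAA) was induced by 300 rads of sublethal irradiation and a transfer of 65000000 C57BL/6 splenocytes, and from radiation controls (RC), which received 300 rads alone. Cells that were 7-AAD-, CD11b+, Ly6C+ and Ly6G- were sorted, cells of 3 mice were pooled per group, and each pool gave 1 single-cell library of the 10x Genomics 5′ kind, in which a UMI (unique molecular identifier) counts 1 captured transcript. The comparison asks what differs in these cells between the marrow failure model and its radiation control, and the day of harvest of these samples is not given in the sources used here. With 1 library a group no test between the groups could be made, the spread between mice is not known, and every interval given below is a 95% interval for counting error only.

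The RC library held 798 barcodes with 4066589 UMIs and the SAA library 825 barcodes with 5592265 UMIs, and 1 barcode sequence occurred in both. Among barcodes with at least 1000 genes, those with more UMIs of Csf1r, Ccr2, F13a1, Ms4a6c and Ly86 than of Camp, Ngp, Fcnb, Cebpe, Elane, Mpo, Prtn3 and Ctsg were taken as monocyte-like (342 in RC, 285 in SAA), and those with fewer as granulocyte-like (318 in RC, 421 in SAA). The 2 RC and 23 SAA barcodes with equal sums of both gene sets were left out. A gap in the first gene set between the classes follows from the rule itself. It was 64.1-fold in RC and 19.1-fold in SAA, monocyte-like to granulocyte-like. Where the higher sum had to be at least 5 times the lower, 308 RC and 204 SAA monocyte-like barcodes were kept. Of granulocyte-like barcodes 311 and 406 were kept, so the SAA monocyte-like class was the least clearly assigned. The median barcode held 3347.5 UMIs in RC and 6082 in SAA monocyte-like cells, and 6787.5 and 6849 in granulocyte-like cells. Barcodes with at least 10 UMIs of 10 cell cycle genes per 10000 UMIs made up 27.2% of monocyte-like cells in RC against 46.7% in SAA, and 81.1% against 86.5% of granulocyte-like cells. Of 10 T and NK cell markers, 6 had no UMI in RC monocyte-like cells and all 10 had some in SAA, where their sum was 196 CPM (counts per 1000000 UMIs of a class) against 13.2 CPM. In granulocyte-like cells that sum was 410 CPM in RC against 344 CPM in SAA, most of it from Nkg7, with 981 and 784 UMIs. The other markers there went the opposite way, since 8 of the 10 had no UMI in RC and none was at 0 in SAA, where Trbc2 had 54 UMIs and Cd3e 49, and Cd3d was at a ratio of 1.82. B cell and erythroid markers summed to at most 17.7 CPM in any class. The part of depth, cell cycle and T cell RNA in the differences below was not tested.

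Sequences are shown for the mitochondrial gene and the nuclear genes whose levels differed most between the libraries. The mt-Atp8 gene, which encodes a small membrane subunit of the ATP synthase, lies at chrM:7766-7969 on the plus strand (GENCODE vM21, build GRCm38) and shares its last 43 bases, set in capitals, with the start of mt-Atp6.
mt-Atp8: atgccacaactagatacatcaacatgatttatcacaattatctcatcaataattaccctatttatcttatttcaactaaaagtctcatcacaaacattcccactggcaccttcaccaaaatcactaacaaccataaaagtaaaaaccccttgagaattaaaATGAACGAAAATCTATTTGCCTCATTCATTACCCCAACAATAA
Because 21.1% of mt-Atp8 is also mt-Atp6, and both lie on 1 RNA, counts of mt-Atp8 cannot be told apart fully from those of its partner. The pair mt-Nd4l and mt-Nd4 shares 7 bases in the same way.

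For nuclear members, the RefSeq table for build GRCm38.p6 held a window of 250 bases before and 50 bases after a transcription start for 69 of 84 genes. The Cox7b gene (chrX:106015700-106022450, plus strand) and the Cox6a1 gene (chr5:115345642-115348981, minus strand) were among the genes with the highest SAA to RC ratios, and the Cox6b2 gene (chr7:4751792-4753094, minus strand) had the lowest. The bases before their starts are given 5′ to 3′, with matches to the 9 bases GCGCATGCG of an NRF1 site, on either strand, in capitals.
Cox7b, chrX:106015450-106015699, plus strand: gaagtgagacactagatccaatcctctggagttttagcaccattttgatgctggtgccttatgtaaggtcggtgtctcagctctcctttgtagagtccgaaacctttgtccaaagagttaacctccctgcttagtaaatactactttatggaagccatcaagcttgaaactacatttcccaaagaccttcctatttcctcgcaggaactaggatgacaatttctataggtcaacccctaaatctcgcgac
Cox6a1, chr5:115348982-115349208, minus strand: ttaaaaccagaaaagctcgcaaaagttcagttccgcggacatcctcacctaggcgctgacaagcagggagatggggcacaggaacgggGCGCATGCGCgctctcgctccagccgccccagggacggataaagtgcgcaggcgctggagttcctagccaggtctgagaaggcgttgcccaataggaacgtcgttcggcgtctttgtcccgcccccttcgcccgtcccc
Cox6b2, chr7:4753095-4753344, minus strand: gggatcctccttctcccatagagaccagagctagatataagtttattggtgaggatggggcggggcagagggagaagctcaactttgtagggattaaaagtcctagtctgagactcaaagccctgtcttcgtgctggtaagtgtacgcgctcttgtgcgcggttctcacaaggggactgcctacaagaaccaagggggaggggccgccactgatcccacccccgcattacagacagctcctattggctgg
The match in Cox6a1, where both strands match 1 base apart, began 162 bases before its RefSeq start. That start lies 23 bases inside the gene as GENCODE places it. On both strands of the whole windows, GCGCATGCG was found in 11.6% of the 69 members against 1.95% of all 27025 genes with a window. The ETS site CCGGAAG was found in 23.2% against 9.93%, and the YY1 site AAGATGGCG in 10.1% against 1.64%. Cox6a1 also held the ETS letters, 16 bases before the RefSeq start in the stretch left out above because GENCODE places it inside the gene, whereas the Cox7b and Cox6b2 windows held none of the 3. The letters of the 3 sites can overlap at their ends. At least 1 of them was held by 26 of the 69 members (37.7%), against 12.7% of all 27025 genes. As defined below, 10 members were called higher in SAA monocyte-like cells, and 4 of them held at least 1. Of the 59 others with a window, 22 did. A match describes the letters only.

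Oxidative phosphorylation genes were a large part of the RNA in each class. In monocyte-like cells the 84 nuclear genes summed to 30292 CPM in RC against 35560 CPM in SAA, and the 13 mitochondrial genes to 17980 and 20082 CPM. In granulocyte-like cells the nuclear genes summed to 21311 CPM in RC against 22829 CPM in SAA, and the mitochondrial genes to 13936 and 16490 CPM. Both classes had the higher sum in SAA for both genomes. Since each UMI stands for the end of 1 transcript, sums were not divided by length. Complex IV took the largest part of the mitochondrial sum, with 10454.5 CPM of the 17980 CPM in RC monocyte-like cells, and mt-Co1 alone gave 5469 CPM. Among nuclear genes of those cells Cox4i1, a nuclear subunit of complex IV, gave 1495 CPM and Atp5e, the epsilon subunit of the ATP synthase, 1425 CPM, while the 4 genes of complex II together gave 434 CPM.

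**Figure D1:**
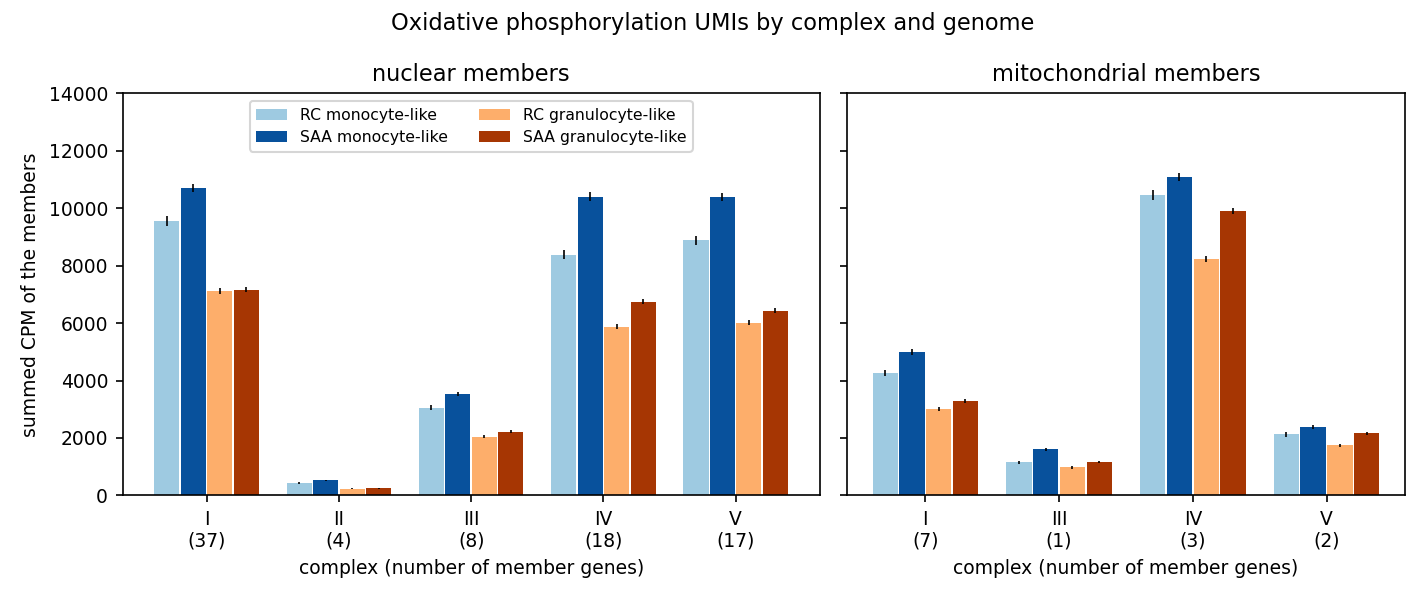
Summed CPM of the member genes (vertical axis) by complex (horizontal axis, number of genes in brackets) for nuclear genes on the left and mitochondrial genes on the right, in the 4 library and class sums. Bars are values of 1 library and lines are 95% Poisson intervals of the UMI counts. Monocyte-like bars stand above the granulocyte-like bars of the same library in every complex, and SAA bars of complex IV stand above RC bars in both genomes.

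In monocyte-like cells, nuclear genes were 1.17-fold higher in SAA than in RC as a sum (1.16 to 1.19), a log2 ratio of 0.23. A gene was called higher or lower where RC and SAA UMIs together came to at least 100 and the ratio of CPM was at least 1.5 or at most 1/1.5. Of 74 nuclear members with that depth, 10 were called higher and none lower, where 14.2% of all 4519 genes were called higher and 14.8% lower. That is 13.5% of the members, near the background for higher calls. The median member was at a log2 ratio of 0.25 and the median of all genes at -0.03, and 55 of the 74 had a ratio above 1. By complex the nuclear log2 ratios were 0.16 for complex I, 0.25 for complex II, 0.21 for complex III, 0.31 for complex IV and 0.23 for complex V, each from 1 pair of libraries. Scaling by TMM, a trimmed mean of the gene ratios, moved all of these log2 ratios up by 0.10 and gave 16 calls.

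Cox7b, an accessory subunit of complex IV, was at 328 CPM in RC (445 UMIs) against 624 CPM in SAA (1266 UMIs), the highest ratio of the nuclear members at 1.91 (1.71 to 2.13). Atp5g1, which encodes the ring of the ATP synthase that turns as protons pass, was at 252 CPM in RC against 469 CPM in SAA, a ratio of 1.86 (1.64 to 2.11). Cox6a1, another subunit of complex IV, was at 512 CPM in RC against 889 CPM in SAA, a ratio of 1.74 (1.59 to 1.90). In each of these genes the 2 levels lay further apart than counting error. Atp5b, the catalytic beta subunit of the ATP synthase, was at 289 CPM in RC against 502 CPM in SAA, a log2 ratio of 0.79. Ndufa5, an accessory subunit of complex I, was at 139 CPM in RC against 241 CPM in SAA, a log2 ratio of 0.79. The other 5 past the limit, named after their values were seen, were Ndufc1 at a log2 ratio of 0.71, Atp5k at 0.68, Cox5a at 0.62, Ndufa12 at 0.62 and Uqcr11 at 0.61. Under 14 other choices of barcodes and scaling Cox7b (log2 ratios of 0.71 to 1.06), Cox6a1 (0.71 to 0.90) and Ndufa5 (0.62 to 0.98) stayed past the limit. The other 7 fell inside it under at least 1 choice, with Ndufa12 at 0.26 as the lowest value.

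The nuclear members with the lowest ratios stayed inside the limit. Cox7a2l, which helps to join complexes III and IV, was at 212 CPM in RC against 150 CPM in SAA, a log2 ratio of -0.50. Uqcrc1, a core protein of complex III, was at 139 CPM in RC against 108 CPM in SAA, at -0.36. Ndufa6, an accessory subunit of complex I, was at 652 CPM in RC against 507 CPM in SAA, also at -0.36. Atp5c1, the gamma subunit in the stalk of the ATP synthase, was at -0.23, and Ndufa7 at -0.19. Each complex held genes on both sides of a ratio of 1, although in complex II Sdhb stood at a ratio of 0.992 (0.832 to 1.19) and Sdha, Sdhc and Sdhd at log2 ratios of 0.28, 0.43 and 0.44.

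Mitochondrial genes of monocyte-like cells were 1.12-fold higher in SAA as a sum (1.10 to 1.13), a log2 ratio of 0.16. A ratio above 1 was found for 12 of the 13 genes, and the exception, mt-Nd5 at a log2 ratio of -0.10, lay within the shift of 0.10 that TMM made. The single call was mt-Atp8, at 84.7 CPM in RC (115 UMIs) against 179 CPM in SAA (363 UMIs), a ratio of 2.11 (1.71 to 2.63). By contrast mt-Atp6, which overlaps it, was at 2040 and 2203 CPM, a log2 ratio of 0.11. The apocytochrome b gene mt-Cytb, the mitochondrial member of complex III, was at 1144 CPM in RC against 1607 CPM in SAA, a log2 ratio of 0.49. The catalytic complex IV genes mt-Co1, mt-Co2 and mt-Co3 stood close together at 0.09, 0.08 and 0.08. Among complex I genes, mt-Nd4l was at 0.31, mt-Nd2 at 0.29, mt-Nd4 at 0.28, mt-Nd1 at 0.23 and mt-Nd3 at 0.13. The gene mt-Nd6, the only member on the light strand, was at 0.47 from 56 and 116 UMIs.

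**Figure D2:**
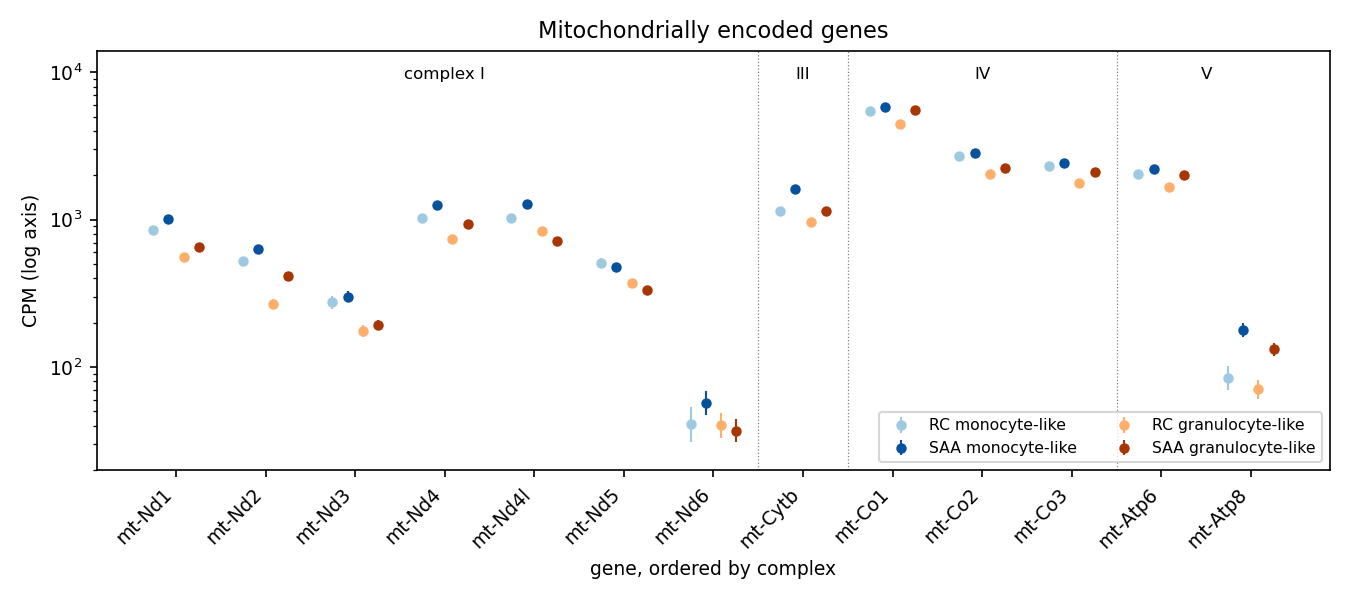
CPM (log axis) of the 13 mitochondrial genes, ordered by complex, in the 4 library and class sums, with 95% Poisson intervals. The levels run from 37.1 CPM for mt-Nd6 in SAA granulocyte-like cells to 5826 CPM for mt-Co1 in SAA monocyte-like cells, and both SAA points of mt-Atp8 lie above both RC points.

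In granulocyte-like cells the order of the genomes turned. Mitochondrial genes were 1.18-fold higher in SAA (1.17 to 1.20) and nuclear genes 1.07-fold (1.06 to 1.08), log2 ratios of 0.24 and 0.10 beside a median of 0.09 over all genes. Of 75 nuclear members 1 was called higher, where 12.4% of 5371 genes were, and 1 lower, where 6.18% were. The nuclear sum of complex I was at a log2 ratio of 0.007, and complexes II, III, IV and V were at 0.08, 0.12, 0.20 and 0.10. Median-of-ratios scaling moved all of these down by 0.09, which left the nuclear sum at 0.008. The mitochondrial sum was at 0.15 under that scaling.

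The gene called higher was Ndufa9, an accessory subunit of complex I near its quinone site, at 20.2 CPM in RC (50 UMIs) against 32.3 CPM in SAA (107 UMIs), a ratio of 1.60 (1.13 to 2.29), with log2 ratios from 0.39 to 1.38 under other choices. Cox6a1 and Atp5b followed at log2 ratios of 0.57 each, Atp5a1, the alpha subunit of the ATP synthase, at 0.54 and Ndufs1, an iron-sulfur subunit of complex I, at 0.48. The gene called lower was Cox6b2, the testis-enriched form of a complex IV subunit, at 62.5 CPM in RC (155 UMIs) against 11.46 CPM in SAA (38 UMIs), a ratio of 0.183 (0.125 to 0.263), and its log2 ratio stayed at or below -1.56 under every other choice run. In monocyte-like cells it had 41 UMIs in RC and 12 in SAA, under the depth for a call, a ratio of 0.196 (0.0938 to 0.380). Both classes thus had the lower level in SAA, whereas Cox6b1, the widely used form, was at log2 ratios of 0.45 in monocyte-like and 0.27 in granulocyte-like cells. The lowest ratios inside the limit were those of Atp5g2 at -0.43, Ndufa8 at -0.31, Ndufc2 at -0.26 and Ndufa7 at -0.26.

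Of the mitochondrial genes in granulocyte-like cells, mt-Atp8 was at 70.6 CPM in RC against 132 CPM in SAA, a ratio of 1.87 (1.56 to 2.24), and mt-Nd2 at 267 and 414 CPM, a ratio of 1.55 (1.41 to 1.70). Both were called higher, but under other choices of barcodes and scaling mt-Atp8 lay between log2 ratios of 0.16 and 1.54 and mt-Nd2 between 0.12 and 1.11. The other genes of complexes IV and V lay between a log2 ratio of 0.14 for mt-Co2 and 0.33 for mt-Co1, and mt-Cytb was at 0.24. Complex I was mixed, with mt-Nd4 at 0.34 and mt-Nd1 at 0.22 but mt-Nd4l at -0.23, mt-Nd5 at -0.17 and mt-Nd6 at -0.12. The lowest of these, mt-Nd4l, was at 840 CPM in RC against 719 CPM in SAA, although mt-Nd4, read from the same RNA, was at 741 and 938 CPM.

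**Figure D3:**
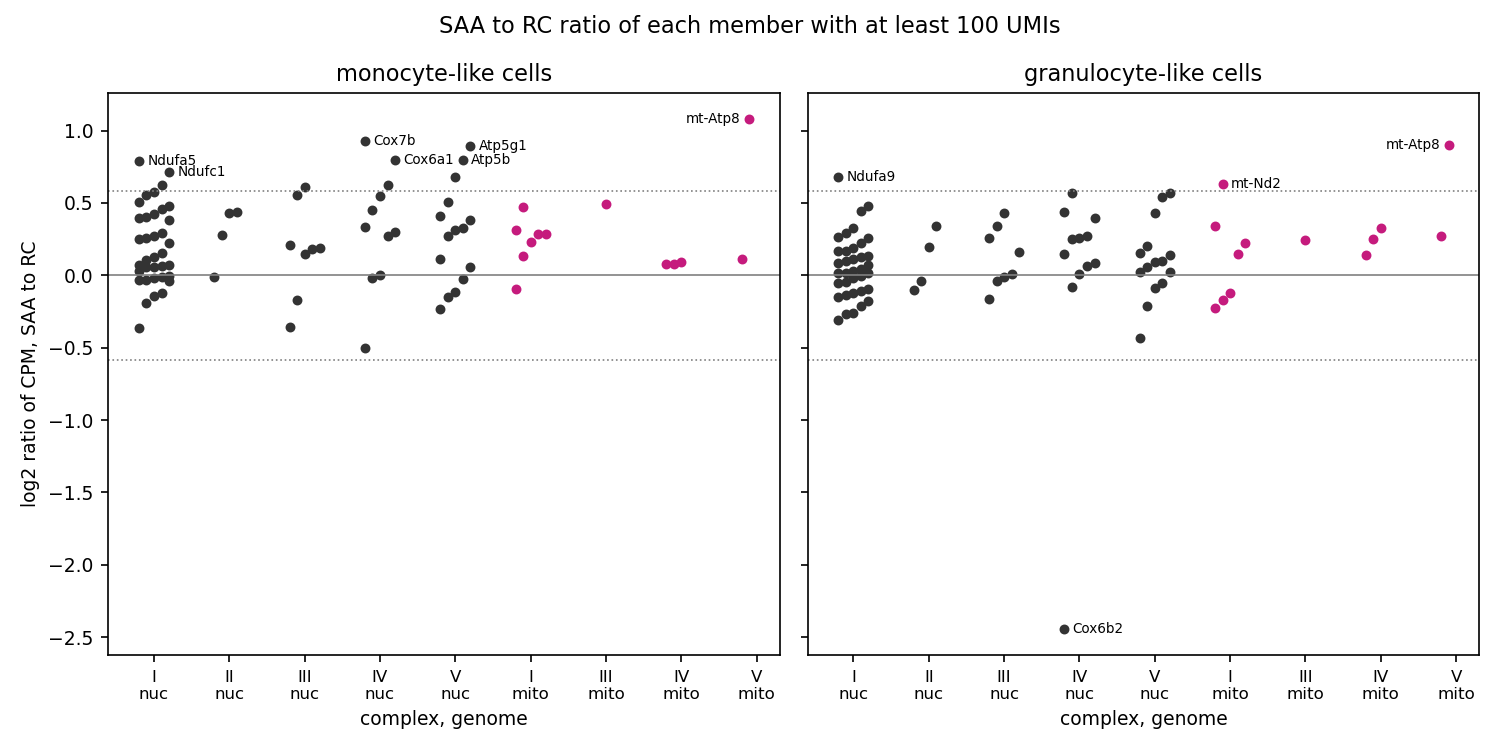
Log2 ratio of CPM, SAA to RC, of each member with at least 100 UMIs (vertical axis) by complex and genome (horizontal axis; black nuclear, magenta mitochondrial) in monocyte-like cells on the left and granulocyte-like cells on the right, where dotted lines mark ratios of 1.5 and 1/1.5. Labels mark the members with the highest ratios on the left and those past the dotted lines on the right, where Cox6b2 stands alone at -2.45.

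The ratio of mitochondrial to nuclear UMIs, which does not depend on scaling, was 0.594 in RC and 0.565 in SAA monocyte-like cells, and 0.654 and 0.722 in granulocyte-like cells. The log2 SAA to RC ratio of this value was -0.07 in monocyte-like cells (-0.10 to -0.04) and 0.14 in granulocyte-like cells (0.12 to 0.17). In monocyte-like cells the complexes went separate ways. The log2 change was 0.28 for complex III (0.18 to 0.38), 0.07 for complex I (0.01 to 0.13) and -0.06 for complex V (-0.14 to 0.01), and it was -0.23 for complex IV (-0.27 to -0.18), where nuclear genes differed more than mt-Co1, mt-Co2 and mt-Co3. In granulocyte-like cells all 4 were above 0, at 0.13, 0.12, 0.07 and 0.21 for complexes I, III, IV and V. The sign in monocyte-like cells did not hold for all barcodes. It was 0.02 in barcodes with 3000 to 8000 UMIs and 0.01 in barcodes below the cell cycle limit, so the change in that class was within what the choice of barcodes moved.

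**Figure D4:**
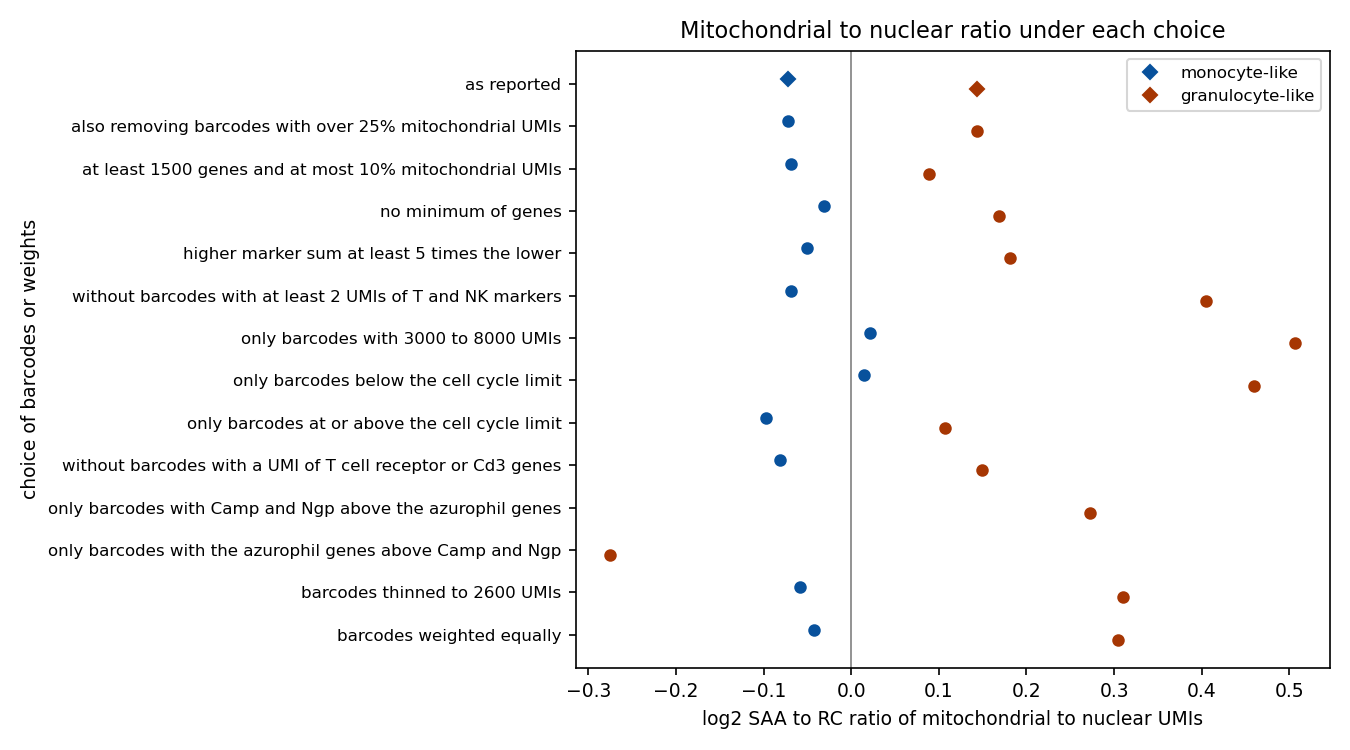
Log2 SAA to RC ratio of mitochondrial to nuclear UMIs (horizontal axis) for each choice of barcodes or weights (vertical axis), in monocyte-like cells (blue) and granulocyte-like cells (brown). Monocyte-like values lie between -0.10 and 0.02, and granulocyte-like values between 0.09 and 0.51 except in barcodes with the azurophil genes above Camp and Ngp, at -0.28.

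The granulocyte-like difference was not alike in early and later cells. Azurophil granule genes (Elane, Mpo, Prtn3, Ctsg) mark the earliest granulocyte precursors and Camp and Ngp later ones. Barcodes with the former above the latter numbered 51 in RC and 33 in SAA, and the later ones made up 83.6% and 92.2% of the class. In these early barcodes nuclear members summed to 30094.5 CPM in RC against 33562 CPM in SAA, and mitochondrial members to 21007 and 19362 CPM, near the sums of monocyte-like cells. In the later barcodes, 266 in RC and 388 in SAA, nuclear members summed to 18615 and 21030 CPM and mitochondrial members to 11739 and 16009 CPM. The SAA to RC log2 ratio of the mitochondrial sum was thus 0.45 in the later and -0.12 in the early barcodes, and the mitochondrial to nuclear ratio went from 0.631 to 0.761 in the later and from 0.698 to 0.577 in the early ones. These splits were chosen after the data were seen.

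The sums were also read on either side of the cell cycle limit. In RC monocyte-like cells nuclear members summed to 28551 CPM below the cell cycle limit and 32738 CPM at or above it, and in SAA to 34342 and 36365 CPM. The SAA to RC log2 ratio of the nuclear sum was 0.27 below the limit and 0.15 at or above it, so SAA was the higher in both. The mitochondrial sum of SAA monocyte-like cells went the other way, from 21401 CPM below the limit to 19211 CPM at or above it, while that of RC was 17614.5 and 18495 CPM. In granulocyte-like cells below the limit, 60 barcodes in RC and 57 in SAA, the nuclear sum was 23572 CPM in RC against 17824 CPM in SAA, a log2 ratio of -0.40. At or above it the sums were 20903 and 23265 CPM, a log2 ratio of 0.15, so against the barcodes below the limit this sum was lower in RC and higher in SAA. Below the limit the nuclear genes of complexes I, III, IV and V stood at -0.48, -0.45, -0.33 and -0.39. Whether this split reflects stage or division was not tested.

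Single barcodes showed the same order as the sums. After each was thinned to 2600 UMIs, which left out 76 RC and 18 SAA monocyte-like and 1 RC and 8 SAA granulocyte-like barcodes, mitochondrial genes took a median 1.73% of UMIs in RC and 1.92% in SAA monocyte-like cells, and 1.11% and 1.58% in granulocyte-like cells. Without thinning the medians were 1.74%, 1.96%, 1.15% and 1.58%. Nuclear genes took a median 3.04% and 3.50% in monocyte-like and 1.85% and 1.96% in granulocyte-like cells after thinning. The quartiles overlapped between the libraries in each class. Across thinned barcodes the Spearman correlation of the mitochondrial with the nuclear share was -0.16 in RC (266 barcodes) and -0.05 in SAA (267) monocyte-like cells, and 0.54 in RC (317) and 0.26 in SAA (413) granulocyte-like cells. These are descriptions within a library, and the shares of a barcode have the same total.

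**Figure D5:**
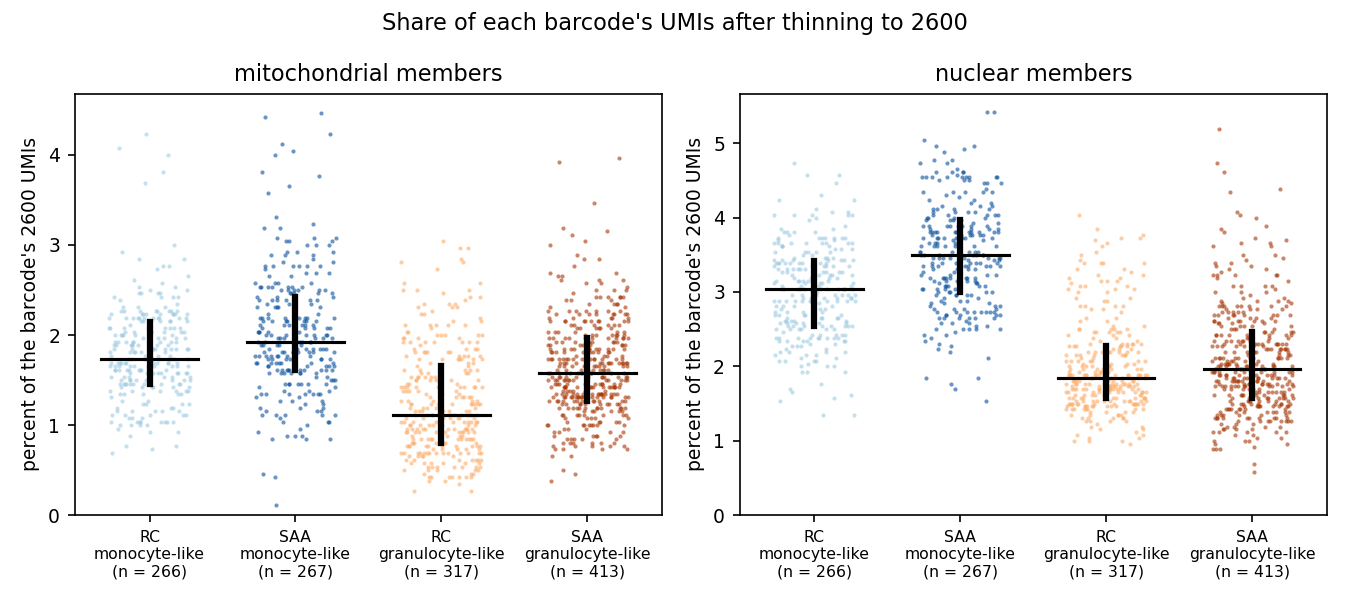
Percent of each barcode's 2600 UMIs from mitochondrial members (left) and nuclear members (right) in the 4 library and class groups on the horizontal axis, where each point is a barcode, the thick line spans the quartiles and the thin line is the median. RC granulocyte-like barcodes have the lowest mitochondrial median, 1.11%, and SAA monocyte-like barcodes the highest nuclear median, 3.50%.

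As a share of all UMIs, monocyte-like cells had more of both gene sets than granulocyte-like cells of their own library. Per barcode the RC order was the reverse. There 342 monocyte-like barcodes held 41148 nuclear and 24424 mitochondrial UMIs, and 318 granulocyte-like barcodes 52850 and 34559. In SAA monocyte-like barcodes held more of both, with 72127 and 40733 UMIs in 285 against 75692 and 54675 in 421. By share, nuclear members were 1.42-fold higher in RC (1.40 to 1.44) and 1.56-fold in SAA (1.54 to 1.57). Mitochondrial members were 1.29-fold (1.27 to 1.31) and 1.22-fold (1.20 to 1.23) higher. As log2 ratios the nuclear sums were at 0.51 in RC and 0.64 in SAA, and the mitochondrial sums at 0.37 and 0.28. The median of all genes was at 0.37 and 0.27, so the mitochondrial sums lay near that background. In RC 35 of 75 nuclear members were called higher, where 37.3% of all genes were, and 2 lower, where 13.7% were. In SAA 53 of 74 were called higher against 32.8%, and 1 lower against 14.7%. Cytosolic ribosome genes were also higher in monocyte-like cells, by 1.63-fold in RC and 1.45-fold in SAA, so respiration was not alone in this. Early granulocyte-like barcodes, with azurophil genes above Camp and Ngp, stood near the monocyte-like sums or above them. In RC they had 30094.5 nuclear and 21007 mitochondrial CPM, against 30292 and 17980 CPM in monocyte-like cells. In SAA they had 33562 and 19362 CPM, against 35560 and 20082 CPM. The mitochondrial to nuclear ratio was lower in monocyte-like cells, by a log2 ratio of -0.14 in RC and -0.36 in SAA, and the RC value lay above 0 under 3 of the other choices.

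As a sum, complex II differed most between the classes, by 1.84-fold in RC and 2.07-fold in SAA, but its genes were uneven. Sdhb, its iron-sulfur subunit (chr4:140961203-140979193), was at 158 CPM in monocyte-like and 46.0 CPM in granulocyte-like cells of RC, a ratio of 3.43 (2.72 to 4.34), and at 156 and 44.6 CPM in SAA. The other complex II genes had smaller ratios in RC and SAA, with Sdhc at 1.83 and 1.94 and Sdhd at 1.43 and 2.08. Sdha, at 1.27 and 1.35, was below the ratio of all nuclear members together in both libraries. Cox7a2l was 2.99-fold and 2.24-fold higher in monocyte-like cells. Uqcrfs1, the Rieske iron-sulfur protein of complex III, was 2.23-fold and 2.56-fold higher. The exceptions were few. Ndufv3, an accessory subunit of complex I, was at 186 CPM in monocyte-like and 346 CPM in granulocyte-like cells of RC, a log2 ratio of -0.89, and at -0.60 in SAA, and Cox6b2 was at -1.05 in RC. Ndufb3 at -0.12 and Cox5a at -0.08 were lower in RC by less than the limit, and stood at 0.26 and 0.46 in SAA.

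Genes that encode alternative forms of 1 subunit were present at very unequal levels. Cox4i2 had 0 UMIs in both RC classes and 4 and 2 UMIs in SAA monocyte-like and granulocyte-like cells, beside at least 1886 UMIs of Cox4i1 in every class. Cox6a2, the heart and muscle form, had 1 UMI in all, and Cox7a1, also a muscle form, had 9 and 13 UMIs in monocyte-like and 4 and 0 in granulocyte-like cells, beside at least 717 of Cox7a2. Cox8b, Cox8c, Cox7b2 and Ndufa4l2 had none in any class, nor did the second entry of Atp5o, and a count of 0 allows up to 3 UMIs a class. The 3 genes for the ATP synthase ring differed in their ratios. In monocyte-like cells Atp5g1 was at a log2 ratio of 0.89, Atp5g3 at 0.41 and Atp5g2 at -0.15, and in granulocyte-like cells they were at 0.20, 0.09 and -0.43. Ndufa4, which is named for complex I but is known to belong to complex IV, was at 0.46 in monocyte-like and -0.15 in granulocyte-like cells, and counting it with complex IV changed the log2 ratios of complexes I and IV in monocyte-like cells to 0.14 and 0.33.

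Other genes of respiration were read from lists with a count of members past the limit in monocyte-like cells, where 14.2% of all genes tested were higher and 14.8% lower. Of 17 genes for other parts of the chain 5 were higher and 1 lower. Cytochrome c (Cycs), which carries electrons from complex III to IV, was at a log2 ratio of 1.36 and had 502 UMIs in RC and 1919 in SAA. The others were Cyc1, a complex III subunit, at 0.79, Etfb at 0.72, Ndufab1 at 0.71 and the small ATP synthase subunit Usmg5 at 0.63, and the gene that was lower was Higd2a at -0.85. Of these only Usmg5 and 2010107E04Rik (0.43) followed the rule for names, and the others were named after their values were seen. Of 15 assembly factor genes 2 were higher, Cox17, a copper chaperone for complex IV, at 1.02 and Coa5 at 1.58, and none lower. In the tricarboxylic acid cycle 4 of 16 genes were higher, among them citrate synthase (Cs) at 0.66, and 1 lower, while Mdh2 was at 0.33.

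Genes that express the mitochondrial genome were mostly too sparse for a ratio. Of 6 genes for its replication, transcription and RNA processing with enough UMIs none was higher and 1, Hsd17b10 at -0.69, was lower, while Ssbp1 was at -0.002 and Slirp at 0.56. Of 57 mitochondrial ribosome genes 10 were higher and 1, Mrpl33 at -0.95, was lower, with a median of 0.20, so that the share called higher was near the 14.2% of all genes. Cytosolic ribosome genes had a median of -0.26, and 0 of 80 were higher and 4 lower. In granulocyte-like cells, where 12.4% of all genes tested were higher and 6.18% lower, 2 of 16 assembly factors were higher and 2 lower, 4 of 62 mitochondrial ribosome genes higher and 1 lower, and 2 of 16 tricarboxylic acid cycle genes higher and 2 lower. Interferon response genes, by contrast, were higher in 16 of 16 cases in both classes.

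Regulators of respiration were sparse. Ppargc1a, the best known coactivator of mitochondrial genes, had 0 UMIs in every class, and Ppargc1b had 1 UMI in RC and 31 in SAA monocyte-like cells. Nrf1 had 28 and 51 UMIs, Gabpa 53 and 64, Gabpb1 27 and 31, Esrra 26 and 59, Tfam 38 and 41, and Pprc1 7 and 29, while Yy1 was at a log2 ratio of -0.15. Hif1a, the oxygen-sensing factor, was at 108 CPM in RC against 182 CPM in SAA, a log2 ratio of 0.75, and was called higher. Acod1, whose product itaconate inhibits complex II, had 0 UMIs in RC and 94 in SAA monocyte-like cells. With RC set to a floor of 3 UMIs the ratio was 21.0, which leaves out the counting error of the SAA count. Nos2 had 0 and 2. AA467197, a relative of Ndufa4 that can take its place in complex IV, had 2 and 3 UMIs in monocyte-like and 140 and 392 in granulocyte-like cells, where its log2 ratio was 1.07 and it was called higher.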

How the data were processed

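Sorted bone marrow cells of 3 pooled mice per group were measured in 1 single-cell library each. The deposited files hold UMI counts per gene and barcode (the authors' processing notes name Cell Ranger 6.0.1 and mm10); the treatment of reads matching several genes is not given in the sources used here. Counts were used as deposited, and the study's limit of 1000 genes was applied. Its 25% mitochondrial limit removed no further barcode. No doublet caller was run. UMIs were summed per class and library and scaled to 1000000 (CPM), so depth set the precision: classes held 1358365 to 3315632 UMIs. Intervals (95%) are Poisson for levels, exact conditional binomial for ratios and log-normal for the mitochondrial to nuclear ratio. No p-value could be had from 1 library a group. The members and gene lists were chosen with earlier results of these data known. Of 31053 genes, 30934 and all 97 members matched GENCODE vM21, whose exons overlap another gene on the same strand in 10 members. Mitochondrial genes have near-identical nuclear copies, and Atp5c1, Atp5k, Atp5l and Uqcrh have named pseudogenes, so their counts are uncertain. Named genes were all mitochondrial members, the 5 highest and 5 lowest nuclear ratios per class, the 4 highest and lowest between classes in RC, the 2 most abundant per complex, the alternative forms, the Sdh genes, the regulators and the 2 most abundant genes of each other list, of which 1 gene is not reported here. Alternatives changed the barcode filters, class rule, depth, weights, scaling (TMM from edgeR 4.0.16 in R 4.3.3, median of ratios) and fold limit. Tools were Python 3.11.15, numpy 2.4.6, scipy 1.17.1, pandas 2.3.3 and matplotlib 3.10.9, and the interval code was tested on simulated data.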

Additional observations from a re-analysis of the deposited data

Results flagged for a closer look

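For 5 genes the SAA to RC ratio lay on opposite sides of 1 in the 2 classes, with counting intervals that did not reach 1. The log2 ratios in monocyte-like and granulocyte-like cells were 0.25 and -0.14 for Ndufb3, 0.46 and -0.15 for Ndufa4, 0.18 and -0.17 for Uqcr10, 0.33 and -0.21 for Atp5o, and 0.31 and -0.23 for mt-Nd4l. The ratio of mitochondrial to nuclear UMIs also went opposite ways, at -0.072 and 0.14 over all complexes and at -0.23 and 0.068 within complex IV. The difference between the classes was not tested, since each came from 1 library a group.

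Barcodes under 1000 genes were left out of the comparisons, except where the minimum of genes was dropped. Among them 3 SAA barcodes and 0 RC barcodes had over 25% mitochondrial UMIs, the highest with 47.7%. Their median mitochondrial share was 1.40% in 136 RC barcodes and 1.81% in 96 SAA barcodes.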

How the results depend on the processing

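No paired analysis was possible because each group had 1 library, and for the same reason no replicate could be left out. Of 140 values for the main results under other choices, 62 stayed within their counting interval or 1.5 times their count, 70 moved and 8 turned sign. The log2 SAA to RC sums of monocyte-like cells stayed above 0 throughout, at 0.055 to 0.28 for mitochondrial and 0.15 to 0.33 for nuclear genes, and the SAA ratio between classes of mitochondrial to nuclear UMIs stayed between -0.47 and -0.31. Depth limits genes of few UMIs, such as Cox6b2 in monocyte-like cells and the regulators.

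Values that moved are given as the log2 SAA to RC ratio of the mitochondrial sum (mt), of the nuclear sum (nuc) and of mitochondrial to nuclear UMIs (mt:nuc), the log2 ratio of mt:nuc between monocyte-like and granulocyte-like cells (class ratio), and the number of nuclear members past the fold (calls). The cause of each move was not tested. With at least 1500 genes and at most 10% mitochondrial UMIs, monocyte-like mt was 0.13, nuc 0.20 and calls 6, granulocyte-like mt 0.20 and mt:nuc 0.089, and the RC class ratio -0.18. With no minimum of genes, monocyte-like mt was 0.20 and mt:nuc -0.031, granulocyte-like mt 0.27 and mt:nuc 0.17, and the SAA class ratio -0.31. With the higher marker sum at least 5 times the lower, granulocyte-like nuc was 0.057 and mt:nuc 0.18. Leaving out barcodes with at least 2 UMIs of T and NK markers kept 190 of 318 RC and 299 of 421 SAA granulocyte-like barcodes. Granulocyte-like mt was then 0.57, nuc 0.17, mt:nuc 0.41 and calls 7, and the class ratios were 0.027 in RC and -0.45 in SAA. In RC granulocyte-like cells most UMIs of these markers were of Nkg7. None of those 318 barcodes held a T cell receptor, Cd3e or Cd3g UMI.

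With 3000 to 8000 UMIs, monocyte-like mt was 0.21, nuc 0.19 and mt:nuc 0.021, granulocyte-like mt 0.53, nuc 0.018, mt:nuc 0.51 and calls 1, and the class ratios 0.014 and -0.47 in RC and SAA. Below the cell cycle limit, monocyte-like mt was 0.28, nuc 0.27, mt:nuc 0.014 and calls 17. Granulocyte-like mt was 0.057 there, nuc -0.40, mt:nuc 0.46 and calls 10. Nuclear complexes I, III, IV and V of that class were at -0.48, -0.45, -0.33 and -0.39 and mitochondrial complex I at -0.36. The class ratios below the limit were 0.025 and -0.42. Thinned to 2600 UMIs, granulocyte-like mt was 0.37, nuc 0.065, mt:nuc 0.31 and calls 1, and the class ratios -0.073 and -0.44. With barcodes weighted equally, monocyte-like mt was 0.19 and mt:nuc -0.042, granulocyte-like mt 0.35, nuc 0.049 and mt:nuc 0.30, and the class ratios -0.055 and -0.40. With TMM, monocyte-like mt was 0.26, nuc 0.33 and calls 16. With median of ratios, monocyte-like mt was 0.19 and nuc 0.26, and granulocyte-like mt 0.15 and nuc 0.008. At the lower of the other fold limits calls were 32 and 15 in monocyte-like and granulocyte-like cells, and at a 2-fold limit 0 and 1.

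The next choices were made after seeing the data. At or above the cell cycle limit, monocyte-like mt was 0.055, nuc 0.15 and calls 5, granulocyte-like nuc 0.15, mt:nuc 0.11 and calls 6, and the class ratios -0.23 and -0.44. With Camp and Ngp above the azurophil genes, granulocyte-like mt was 0.45, nuc 0.18, mt:nuc 0.27 and calls 4. With the azurophil genes above Camp and Ngp, granulocyte-like mt was -0.12, nuc 0.16, mt:nuc -0.28 and calls 4, and mitochondrial complexes I, III, IV and V were at -0.098, -0.028, -0.12 and -0.22. Dropping barcodes with a T cell receptor or Cd3 UMI moved no main result beyond these limits.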
